A study of Mus musculus with 2 samples.

Results

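The family 1 vomeronasal receptor genes (Vmn1r) of the mouse were described in nasal mucosa 3 days after papain and 3 days after phosphate-buffered saline (PBS). Members were the genes whose symbol is Vmn1r followed by a number and that had at least 1 row of the array table naming them alone. Of 22180 genes named in this way, 176 were members. For the 3 members with a pair of rows, the row with the higher mean signal was kept.

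The papain group was 1 array and the PBS group was 1 array, both from C57BL/6 mice of 4 to 6 weeks, and both labelled as nasal mucosa at 3 days. Papain, a cysteine protease of papaya, serves as an airway allergen, and PBS is its vehicle. Material of 4 samples was pooled according to the design text, which does not say whether this was per group, so spread between animals cannot be seen. A single array per group leaves no replicates, so nothing was tested and precision is limited by the number of arrays. Signals are on the log2 scale of Affymetrix Mouse Gene 2.0 ST arrays, and ratios are the papain value minus the PBS value on that scale.

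V1R proteins are G protein-coupled receptors made by vomeronasal sensory neurons. Their organ is a paired tube at the base of the nasal septum. A neuron that uses this family lies in the apical layer of the organ, couples its receptor to the G protein subunit encoded by Gnai2 and depolarises through the channel encoded by Trpc2. Mouse V1R receptors are known for detecting small molecules of urine, such as steroid sulfates. The genes lie in clusters of close copies, their coding sequence lies in a single exon, and each mature neuron is thought to use very few of them.

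Close copies matter for reading an array, so the first 50 coding bases are shown for the chromosome 6 group from Vmn1r32 to Vmn1r39, where the highest ratio of the family lay. Sequences are from RefSeq, build GRCm38.p6, read 5′ to 3′ on the strand given. Capitals mark bases that differ from Vmn1r37 at the same position from the start codon. No coding start of Vmn1r32 or Vmn1r39 was used here.
Vmn1r37, chr6:66731392-66731441, plus strand: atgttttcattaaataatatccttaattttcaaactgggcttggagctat
Vmn1r36, chr6:66716840-66716889, minus strand: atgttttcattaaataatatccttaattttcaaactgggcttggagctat
Vmn1r34, chr6:66637703-66637752, minus strand: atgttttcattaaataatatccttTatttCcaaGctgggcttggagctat
Vmn1r35, chr6:66679635-66679684, minus strand: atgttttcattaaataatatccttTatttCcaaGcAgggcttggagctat
Vmn1r38, chr6:66777081-66777130, minus strand: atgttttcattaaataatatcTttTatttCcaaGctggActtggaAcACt
Vmn1r33, chr6:66612519-66612568, minus strand: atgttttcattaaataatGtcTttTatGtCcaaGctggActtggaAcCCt
Vmn1r36 shared all 50 of these bases with Vmn1r37, while Vmn1r34 differed at 3, Vmn1r35 at 4, Vmn1r38 at 8 and Vmn1r33 at 10. A probe in such a stretch cannot tell identical copies apart. The probe positions were not used here, so how far copies share signal was not measured.

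Coding starts of different subfamilies are shown next, and their likeness between subfamilies was not computed apart. The members below had the highest ratio of their subfamily among those with such a window, and capitals mark the start codon.
Vmn1r84, subfamily V1rg, chr7:12362715-12362764, minus strand: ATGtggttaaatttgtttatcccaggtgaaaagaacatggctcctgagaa
Vmn1r220, subfamily V1rh, chr13:23184475-23184524, minus strand: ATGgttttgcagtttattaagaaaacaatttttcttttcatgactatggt
Vmn1r202, subfamily V1ri, chr13:22502196-22502245, minus strand: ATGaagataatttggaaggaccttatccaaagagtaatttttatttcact
Vmn1r237, subfamily V1rf, chr17:21314017-21314066, plus strand: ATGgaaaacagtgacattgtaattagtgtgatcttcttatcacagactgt
Vmn1r226, subfamily V1re, chr17:20687508-20687557, plus strand: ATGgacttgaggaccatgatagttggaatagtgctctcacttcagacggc
Vmn1r85, subfamily V1rj, chr7:13085166-13085215, minus strand: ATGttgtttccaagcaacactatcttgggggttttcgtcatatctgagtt
Over the 131 members whose window opens the coding sequence, the median pair of members shared 16 of 50 bases by position, and 61 members had another member with at least 48 alike. Pairs within a subfamily are included and no gaps were allowed, so the median does not measure the likeness of whole genes.

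The Vmn1r genes were higher in the papain array as a family. Signals of 113 members out of 176 exceeded the PBS value by 2-fold or more, those of 63 lay inside 2-fold and 0 fell short by that much. The shares over all named genes were 1.83% for higher and 0.73% for lower. These shares include the receptors themselves. Outside Vmn1r and the family 2 receptors (Vmn2r), 206 of 21895 named genes were at least 2-fold higher (0.94%) and 161 lower. The median log2 ratio of the members was 1.46, with the middle of the distribution between 0.50 and 2.52, against -0.03 over all named genes. In all, 164 members had ratios above 0 and 12 below 0. The threshold cut a continuous range: Vmn1r238 at 1.02 and Vmn1r192 at 1.004 lay just inside 2-fold, and Vmn1r30 at 0.99 and Vmn1r119 at 0.94 just outside. In RNA of whole mucosa, more cells of a type and more RNA per cell cannot be told apart.

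**Figure D1:**
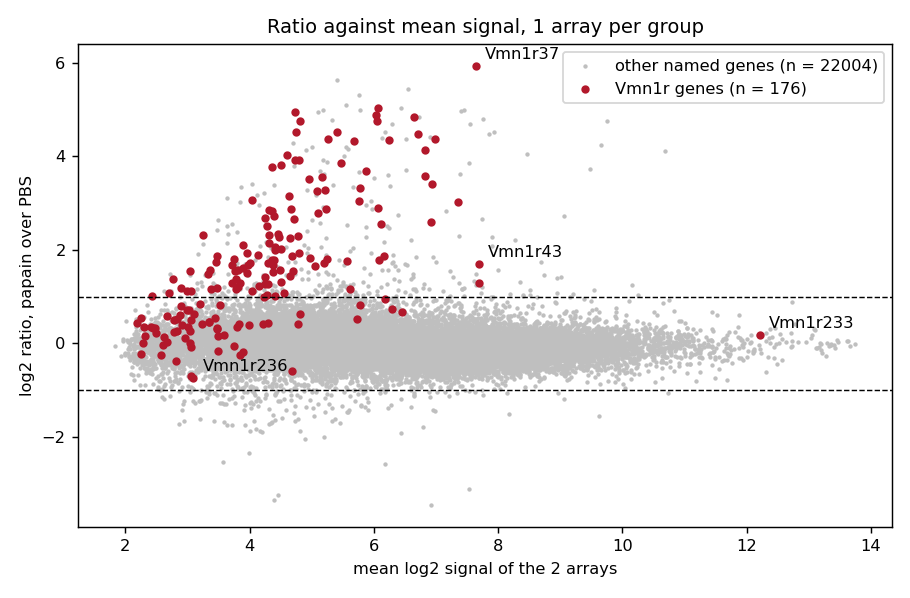
Log2 ratio of papain over PBS (vertical axis) against the mean log2 signal of both arrays (horizontal axis), with 1 point per gene. Red points are the 176 Vmn1r genes, grey points all other named genes, and dashed lines mark 2-fold. The red points spread upward to 5.93 for Vmn1r37, none lies under the lower dashed line, and the brightest, Vmn1r233, lies near 0.

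The signals behind these ratios were mostly dim in the PBS array. A background level was taken as the median of 30 measured genes of other tissues, such as sperm, kidney and pituitary genes, and was 5.04 in the papain array against 5.07 in the PBS array. These genes reach up to 7.08 in the papain array against 7.83 in the PBS array, so a signal over that level is not proof of transcript. The median member read 4.93 in the papain array against 3.23 in the PBS array. Above background level were 84 members in the papain array and 13 members in the PBS array. Of all 22180 named genes, 16405 exceeded that level after papain and 15845 after PBS. After papain only, 71 members and 943 of all named genes exceeded it.

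All 13 members above it in the PBS array were above it in the papain array too, and 92 members were under it in both. Of those 92, 80 had ratios above 0 and 12 below 0, and 0 of the 30 other-tissue genes were past 2-fold in either direction. Of the 113 members at least 2-fold higher, 36 belonged to those 92. Their ratios are differences of array signal, and whether they measure transcript was not tested. A further 70 were above background level in the papain array only. For these members the text gives "at least" the fold over the background level of the PBS array, beside the ratio of signals as measured.

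**Figure D2:**
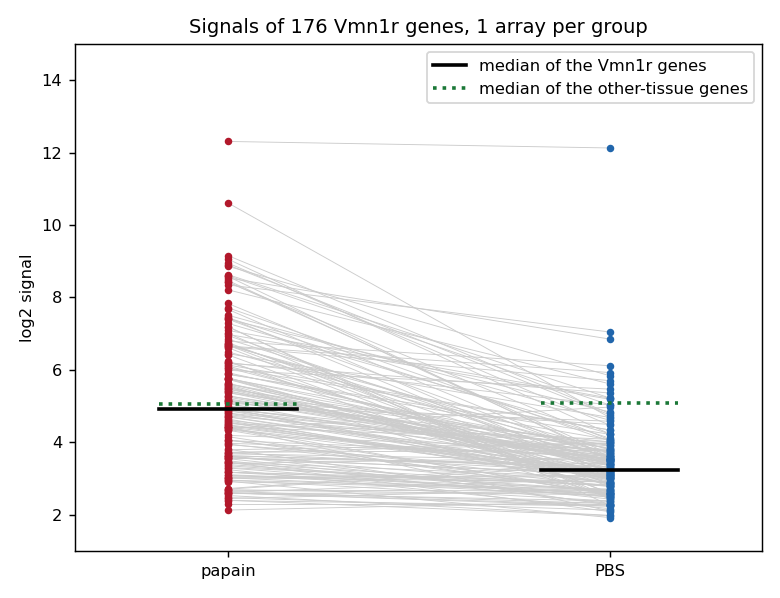
Log2 signal of each of the 176 Vmn1r genes in the papain array (left) and the PBS array (right), joined by grey lines. Black bars are the medians of the members, 4.93 and 3.23, and green dotted bars the medians of the other-tissue genes, 5.04 and 5.07. Most points of the PBS array lie under the dotted bar.

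For the 13 members above background level in both arrays the ratio of signals is given as measured. Apart from Vmn1r233, their PBS signals lie within the range of the other-tissue genes, so these folds too may lean on background. Vmn1r217 (subfamily V1rh) read 8.63 in the papain array against 5.22 in the PBS array, 10.61-fold higher. Vmn1r36 (V1rc) read 8.86 and 5.84 in the papain and PBS arrays, 8.13-fold higher. Vmn1r127, also named in rows shared with close copies, read 8.21 after papain and 5.61 after PBS, 6.05-fold higher. These were the 3 highest ratios of the 13, and 7 of the 13 were at least 2-fold higher. Of all named genes, 15462 were above background level in both arrays, and the share of those past 2-fold was not counted.

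The other 4 past 2-fold in this group had smaller ratios. Vmn1r148 (V1rd), likewise named in shared rows, read 7.09 against 5.22 in the PBS array, and Vmn1r10 (V1rc) read 6.98 against 5.19 in the PBS array. Vmn1r43 (V1ra) read 8.54 after papain and 6.85 after PBS, 3.22-fold higher. Vmn1r159, a member also named in rows shared with close copies, read 8.35 after papain and 7.05 after PBS, 2.46-fold higher. The remaining 6, Vmn1r119, Vmn1r170, Vmn1r9, Vmn1r2, Vmn1r175 and Vmn1r233, lay within 2-fold, with log2 ratios between 0.18 and 0.94. The ratio of each of the 13 was above 0, and their median log2 ratio was 1.30.

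Vmn1r233 (V1rf), the brightest row of the family, needs its second row beside it. The kept row read 12.31 in the papain array against 12.13 in the PBS array, a log2 ratio of 0.18. Its other row read 6.73 in the papain array against 3.45 in the PBS array, a log2 ratio of 3.28. The first row puts this receptor within 2-fold and the second far past it, and which of them measures the receptor was not tested.

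Rows also disagreed for the other members that had a pair of them. Vmn1r208 (V1rh) had log2 ratios of -0.59 in the kept row and 0.82 in the other. Vmn1r212 (V1rh) had 0.52 in the kept row and -0.43 in the other, with all its signals under background level. Over 329 dim named genes with repeated rows, the SD of 1 row's log2 ratio was 0.34, a measure of probe error and not of spread between animals. The 12 members below 0 lay between -0.75 and -0.02.

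The 10 highest ratios came from 4 chromosomal groups of receptor genes and ran from 4.48 to 5.93. Vmn1r37 (V1rc, also called V1rc10) read 10.61 in the papain array against 4.68 in the PBS array, a 60.9-fold ratio of signals and at least 46.5-fold over background level. Vmn1r33 (V1rc) read 8.58 and 3.55 in the papain and PBS arrays, at least 11.4-fold higher. Vmn1r39 read 8.47 in the papain array against 3.60 in the PBS array, at least 10.53-fold higher. These 3 lie in the chromosome 6 group from Vmn1r32 to Vmn1r39, with other members between them.

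The V1rc genes of a second chromosome 6 group gave 3 more of the 10. Vmn1r27 read 9.06 in the papain array against 4.23 in the PBS array, at least 15.8-fold higher, and Vmn1r18 read 8.95 against a PBS signal of 4.47, at least 14.7-fold higher. Vmn1r28 read 7.01 after papain and 2.49 after PBS, at least 3.83-fold higher. On chromosome 7, Vmn1r86 read 8.43 after papain and 3.67 after PBS, at least 10.26-fold higher, and Vmn1r68 read 7.20 against a PBS signal of 2.26, at least 4.36-fold higher. The last 2 lay on chromosome 13. Vmn1r218 (V1ri) read 7.67 after papain and 3.15 after PBS, at least 6.05-fold higher, and Vmn1r220 (V1rh) read 7.19 against a PBS signal of 2.43, at least 4.32-fold higher. In each of the 10 the PBS signal lay under background level, so the measured ratio and the bound differ, for Vmn1r68 by the widest margin among them.

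In all, 16 members were at least 16-fold higher by signal, and 0.212% of all named genes were. Outside Vmn1r and Vmn2r, 3 of 21895 named genes were. Vmn1r184 on chromosome 7 read 9.16 in the papain array against 4.80 in the PBS array, at least 16.9-fold higher, the next bound after that of Vmn1r37. At 3-fold, 79 members were higher and 0 lower, where 0.924% of all named genes were higher and 0.158% lower. At 1.5-fold, 126 members were higher and 3 lower, where the shares of all named genes were 5.38% and 4.34%. Among genes above the median signal of named genes, which kept 44 members, 40 members were past 2-fold upward and 0 downward, where the shares of such genes were 1.59% and 0.385%. Of those 44, all but Vmn1r43, Vmn1r159 and Vmn1r233 pass only through their papain signal and so had to be higher there, and nothing is read from that count.

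The 5 lowest ratios were all within 2-fold and all had both signals under background level. Vmn1r236 (V1rf) read 2.72 in the papain array against 3.47 in the PBS array, and Vmn1r42 (V1ra) read 2.70 in the papain array against 3.40 in the PBS array. Vmn1r208 (V1rh), whose rows disagreed, was the third, followed by Vmn1r53 (V1rb) with 2.62 after papain and 3.001 after PBS and by Vmn1r204 with 2.45 after papain and 2.70 after PBS. None of these differences can be taken as a measure of transcript.

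Receptors were grouped by the V1r letter among their synonyms in the RefSeq gene table, which classes them by sequence. All 176 members matched that table by gene ID, with the same symbol. A letter was given for 120 members, 2 had several letters and 54 had none. At least 2-fold higher members were found under every letter measured, from a to k. Counts and medians by letter include members under background level in both arrays, whose ratios cannot be taken as a measure of transcript. These were 5 of 8 in V1ra, 4 of 6 in V1rb, 17 of 31 in V1rc, 12 of 16 in V1rd and 4 of 13 in V1re. In V1rf they were 3 of 5, in V1rg 6 of 11, in V1rh 13 of 18 and in V1ri 6 of 9.

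V1re had 10 of 13 members past 2-fold and a median log2 ratio of 2.15. Its highest member, Vmn1r71, read 7.83 in the papain array against 3.51 in the PBS array, at least 6.77-fold higher. Its lowest, Vmn1r67, had signals of 3.72 after papain and 3.78 after PBS, under background in both. V1rg had 8 of 11 at least 2-fold higher and a median of 1.82. Vmn1r84, its highest, read 8.42 after papain and 4.07 after PBS, at least 10.14-fold higher, while Vmn1r74, its lowest, read 3.05 after papain and 3.04 after PBS.

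V1ra and V1rb lie side by side on chromosome 6. Mice engineered to lack most of that stretch are known for altered maternal aggression and male mating behaviour. V1ra had 6 of 8 members at least 2-fold higher and a median of 1.61, and V1rb had 2 of 6 and a median of 0.45. Vmn1r51, the highest of V1ra, read 6.50 after papain and 3.71 after PBS, at least 2.68-fold higher, and Vmn1r42, given above, was its lowest. Vmn1r40, the highest of V1rb, read 5.28 after papain and 3.50 after PBS, at least 1.16-fold higher, and Vmn1r53, given above, was its lowest. Vmn1r49, also called V1rb2 and known as a receptor for the urinary ketone heptanone, read 3.30 after papain and 2.80 after PBS, under background in both arrays.

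V1rj had only 2 members here, known for responding to sulfated estrogens, and both were past 2-fold. Vmn1r89 (V1rj2) read 8.90 in the papain array against 4.76 in the PBS array, at least 14.2-fold higher. Vmn1r85 (V1rj3) read 7.72 in the papain array against 4.03 in the PBS array, at least 6.25-fold higher. The neighbouring Vmn1r87, the only V1rk member, read 5.47 after papain and 3.15 after PBS, at least 1.32-fold higher.

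V1rc, V1rd, V1rh and V1ri had about as many members within 2-fold as past it. V1rc had 15 of 31 at least 2-fold higher with a median of 0.99, and its ratios ran from 5.93 for Vmn1r37 down to -0.23 for Vmn1r23, which read 2.13 after papain and 2.36 after PBS. V1rd had 8 of 16 and a median of 0.94. Vmn1r58, its highest, read 6.11 after papain and 3.23 after PBS, at least 2.05-fold higher, and Vmn1r55, its lowest, read 3.42 after papain and 3.58 after PBS. V1rh had 10 of 18 and a median of 1.18, with Vmn1r220 the highest and Vmn1r208 the lowest. V1ri had 5 of 9 and a median of 1.004, with Vmn1r218 the highest and Vmn1r215, at 2.68 after papain and 2.66 after PBS, the lowest.

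V1rf had 3 of 5 and a median of 1.12. Vmn1r237, its highest, read 7.40 after papain and 3.54 after PBS, at least 5.01-fold higher, and Vmn1r236, given above, was its lowest. The 54 members with no letter had 41 at least 2-fold higher and a median of 1.62. The range within a subfamily with 3 or more members was wider than the range of the subfamily medians from 0.45 to 2.15, and no test of the differences between subfamilies was possible.

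**Figure D3:**
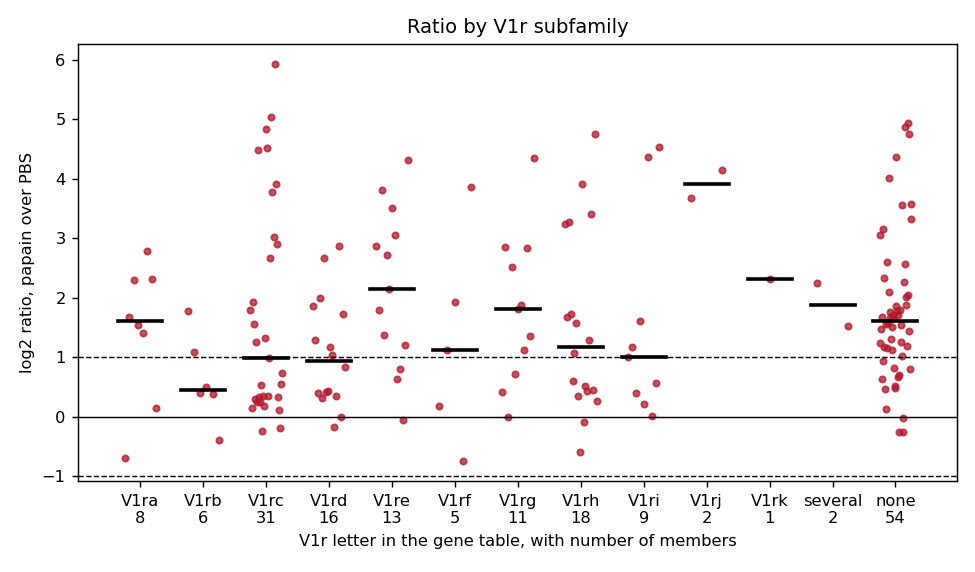
Log2 ratio of papain over PBS for each Vmn1r gene (red points), by V1r letter, with the number of members under each letter and the median as a black bar. The dashed lines mark 2-fold and the solid line a ratio of 0. The single highest point, at 5.93, is in V1rc, whose points run down to -0.23.

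Members were also placed in the gene order of the RefSeq table, a new group starting where the next family gene lay more than 1 Mb away. The group from Vmn1r32 to Vmn1r39 on chromosome 6 had 8 members, all at least 2-fold higher, and a median log2 ratio of 3.85. Beside Vmn1r33, Vmn1r36, Vmn1r37 and Vmn1r39, given above, it holds Vmn1r38 at 6.75 in the papain array against 2.84 in the PBS array and Vmn1r35 at 6.24 in the papain array against 2.46 in the PBS array. Vmn1r34 read 7.40 after papain and 4.84 after PBS, and Vmn1r32 read 6.05 after papain and 3.39 after PBS. Each of the 8 was above background level in the papain array, and Vmn1r36 alone was above it in the PBS array.

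The group from Vmn1r4 to Vmn1r31, also on chromosome 6 and also mostly V1rc, spread more widely. Of its 28 members 12 were at least 2-fold higher, with a median of 0.64, and 17 were under background level in both arrays. Within V1rc alone, 9 of 25 members of this group were at least 2-fold higher with a median of 0.54, against 6 of 6 with a median of 3.85 in the group from Vmn1r32 to Vmn1r39. This difference was seen after the values were known and was not tested.

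On chromosome 17, the group from Vmn1r224 to Vmn1r237 had 11 of 14 members at least 2-fold higher and a median of 2.04. Of these 14, 4 were under background level in both arrays. Vmn1r226 read 6.41 in the papain array against 2.61 in the PBS array, at least 2.53-fold higher, and Vmn1r230 read 6.71 against a PBS signal of 3.21, at least 3.12-fold higher. Vmn1r232 of the same group lay within 2-fold, at 5.13 after papain and 4.49 after PBS. On chromosome 13, the group from Vmn1r188 to Vmn1r223 had 19 of 33 and a median of 1.17, with 24 under background level in both arrays. On chromosome 6, the group from Vmn1r40 to Vmn1r54 had 9 of 15 and a median of 1.41, with 9 under background level in both arrays.

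Chromosome 7 held 4 groups with members. The group from Vmn1r66 to Vmn1r89 had 18 of 24 at least 2-fold higher and a median of 1.85, with 10 under background level in both arrays. The group from Vmn1r91 to Vmn1r183 had 27 of 39 and a median of 1.47, with 19 under background level in both. The group from Vmn1r55 to Vmn1r65 had 5 of 9 and a median of 1.18, with 6 under background level in both. Both members of the pair Vmn1r184 and Vmn1r185 were past 2-fold. Of the 4 members elsewhere, Vmn1r1 on chromosome 1 had a log2 ratio of 1.24, Vmn1r238 on chromosome 18 had 1.02, and Vmn1r2 and Vmn1r3 on chromosome 4 had 0.68 and -0.25. All of these but Vmn1r2 were under background level in both arrays.

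Adjacent members of a group were not closer in ratio than any pair of the family by much. The median absolute difference in log2 ratio was 1.15 over 164 adjacent pairs and 1.29 over all 15400 pairs. Other genes that lie between family members of a group were near 0 at the median. They include V1ra8 and V1rd19, receptors of the family under another symbol form, of which V1rd19 had a log2 ratio of -0.17 with both signals under background level. For 49 such genes the median log2 ratio was -0.00, with 3 at least 2-fold higher and 1 lower. The 3 higher ones were Gm6929, V1ra8, at 4.80 in the papain array against 3.16 in the PBS array, and Fpr-rs3, a formyl peptide receptor of vomeronasal neurons, at 6.84 in the papain array against 4.30 in the PBS array. Just outside the groups, 0 of 27 flanking genes were past 2-fold in either direction.

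**Figure D4:**
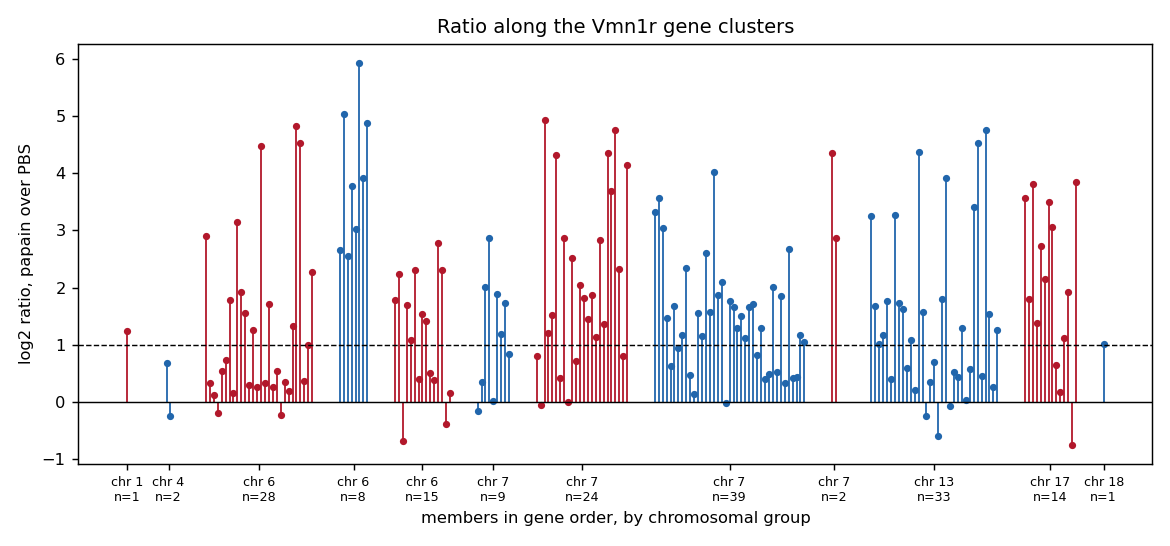
Log2 ratio of papain over PBS for each Vmn1r gene in gene order, with a gap and a change of colour between chromosomal groups and the number of members under each. The dashed line marks 2-fold. All 8 members of the chromosome 6 group from Vmn1r32 to Vmn1r39 lie above it, whereas each other group of at least 9 members mixes members above and below it.

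Members with identical coding starts did not have to share a ratio. Vmn1r27 and Vmn1r20 were picked for their unlike ratios and are printed here because all 50 bases were alike while their log2 ratios were 4.83 and 1.71, and capitals mark the start codon.
Vmn1r27, chr6:58215968-58216017, minus strand: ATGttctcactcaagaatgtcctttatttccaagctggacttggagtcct
Vmn1r20, chr6:57431691-57431740, plus strand: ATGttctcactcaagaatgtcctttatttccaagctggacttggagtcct
Over 173 pairs with at least 48 of 50 bases alike, the median absolute difference in log2 ratio was 1.09, against 1.29 over 7846 pairs with fewer than 40 alike. These pairs share members, and 50 bases are a small part of a receptor gene.

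Only 23 of the 154 members with a promoter window in the RefSeq table had a transcript start before the coding sequence, so upstream sequence was read for those 23 alone. The 250 bases before the start had a median GC content of 36.0% in these members, against 52.4% over 32851 windows of the table. The motifs were searched on both strands and were chosen with the ratios known. The homeodomain motif TAATTA was in 4 of the 23 windows (17.4%) and in 4.84% of all windows. TATAAA was in 7 of the 23 (30.4%) and in 12.4% of all windows, and the palindromic motif of early B cell factors was in 0 of the 23 and in 0.779% of all windows. Whether the low GC content of these windows has a part in these shares was not tested.

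The windows with the 2 highest ratios and the lowest ratio of the 23 are printed as 250 bases upstream, with capitals for any of these motifs. Vmn1r71, with a log2 ratio of 4.32, and Vmn1r236, with -0.75, held none of them, and Vmn1r58, with 2.88, held TAATTA. The median log2 ratio was 1.70 for the 4 members with TAATTA and 1.21 for those without, and 0.73 for the 7 with TATAAA and 1.78 for those without. Both sides include members under background level in both arrays, whose ratios cannot be taken as a measure of transcript. With TATAAA these were Vmn1r171, Vmn1r65, Vmn1r172 and Vmn1r195, and with TAATTA Vmn1r67. Vmn1r236, which held neither motif, was under it in both arrays too.
Vmn1r71, chr7:10749539-10749788, minus strand: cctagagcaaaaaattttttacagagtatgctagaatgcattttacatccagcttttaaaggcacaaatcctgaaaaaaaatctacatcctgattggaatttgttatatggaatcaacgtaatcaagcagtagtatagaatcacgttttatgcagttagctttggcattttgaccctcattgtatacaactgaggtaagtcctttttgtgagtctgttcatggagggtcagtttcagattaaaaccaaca
Vmn1r58, chr7:5413146-5413395, minus strand: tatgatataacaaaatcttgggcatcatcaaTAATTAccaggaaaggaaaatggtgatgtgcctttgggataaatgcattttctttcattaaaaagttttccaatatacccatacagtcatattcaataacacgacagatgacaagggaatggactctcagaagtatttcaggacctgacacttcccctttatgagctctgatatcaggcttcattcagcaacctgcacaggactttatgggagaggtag
Vmn1r236, chr17:21286283-21286532, plus strand: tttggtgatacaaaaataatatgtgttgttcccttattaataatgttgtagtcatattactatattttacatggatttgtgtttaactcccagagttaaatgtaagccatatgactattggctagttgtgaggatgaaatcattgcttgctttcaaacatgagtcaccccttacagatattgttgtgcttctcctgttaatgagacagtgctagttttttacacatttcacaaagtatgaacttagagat

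The genes listed for V1R transduction and firing differed less between the arrays than the receptors did. The list is not particular to V1R neurons: Gnao1 was also listed for neurons that use family 2 receptors, and Ano2 for olfactory neurons. For transduction and firing, 15 listed genes were measured, 10 with ratios above 0 and 5 below, and the median log2 ratio was 0.45. None was at least 2-fold higher and 1, Hcn4, a pacemaker channel subunit, was at least 2-fold lower by signal, with its papain signal under background level, at 4.54 in the papain array against 5.58 in the PBS array. Trpc2, the transduction channel of vomeronasal neurons, read 7.04 in the papain array against 6.21 in the PBS array. Gnai2, which encodes the G protein subunit of V1R neurons but is used by many other cells too, read 10.24 in the papain array against 10.15 in the PBS array.

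Several other listed genes were higher in the papain array by less than 2-fold. Gng8, a G protein gamma subunit gene of vomeronasal and immature olfactory neurons, read 8.40 in the papain array against 7.42 in the PBS array, and Gng2, another gamma subunit gene, read 7.80 in the papain array against 6.93 in the PBS array. The potassium channel gene Kcnn3 read 6.29 after papain and 5.41 after PBS, and Kcnj3 read 5.45 after papain against a PBS signal of 4.63 under background level. The receptor transport protein genes Rtp1 and Rtp2 had log2 ratios of 0.45 and 0.54, and Gnao1, the subunit of neurons that use family 2 receptors, had 0.56.

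The rest of the transduction list lay near 0. Plcb2, a phospholipase gene, had a log2 ratio of 0.02, the chloride channel genes Ano1 and Ano2 had -0.16 and -0.06, Itpr3, a calcium release channel gene, had -0.19, and Hcn2 had -0.30.

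Markers of the apical neurons that carry V1R receptors did not share the receptors' difference. The 5 genes, Gnai2, Meis2, Nrp2, Pde4a and Ncam2, were above background level in both arrays and had log2 ratios between -0.15 and 0.29, with a median of -0.03. These genes are also used by other cells of the mucosa. Among markers of the basal neurons, which carry family 2 receptors, 8 of 12 were at least 2-fold higher, 0 lower, and the median log2 ratio was 1.65. The shares over all named genes were 1.83% for higher and 0.73% for lower. These 8 were Calr4 and H2-M genes. Within 2-fold, as the apical markers were, lay Gnao1, Tfap2e, Robo2 and H2-M10.2, with log2 ratios of 0.56, 0.81, 0.17 and 0.19. Among the basal markers H2-M1 read 7.19 in the papain array against 3.31 in the PBS array, and Calr4 read 7.94 in the papain array against 4.59 in the PBS array. Tfap2e, a transcription factor gene of the basal neurons, read 5.96 in the papain array against 5.15 in the PBS array, and Robo2 read 8.11 in the papain array against 7.94 in the PBS array.

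The remaining basal markers were H2-M genes, nonclassical class I histocompatibility genes. H2-M10.5, H2-M10.6, H2-M9, H2-M10.4, H2-M10.3 and H2-M10.1 had log2 ratios of 3.04, 2.05, 1.93, 1.78, 1.53 and 1.26, and H2-M10.2 had 0.19. All of them but H2-M10.1 had PBS signals under background level.

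Family 2 receptors, a separate class of vomeronasal receptors, had 86 of 109 genes past 2-fold upward and 1 downward, with a median log2 ratio of 2.58. Olfactory receptors (Olfr) did not share this shift: 21 of 1088 were at least 2-fold higher and 93 lower, with a median of -0.11. The shares over all named genes were 1.83% for higher and 0.73% for lower. Under background level in both arrays were 37 of the 109 family 2 genes and 732 of the Olfr genes. Only 10 family 2 genes were above it in the PBS array. These families were set beside Vmn1r as counts only, with no test of the difference between them.

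Other lists of nasal cells lay closer to 0. The genes of vomeronasal gland proteins, Lcn3 and Lcn4, read 12.98 and 13.24 after papain, against 12.57 and 12.96 after PBS. The 8 measured olfactory neuron markers had a median log2 ratio of -0.36, with 1, S100a5, at least 2-fold lower. The 6 immature neuron markers had a median of 0.08 and the 6 sustentacular cell markers, genes of the supporting cells of olfactory epithelium, had -0.00. Omp, a protein of mature olfactory and vomeronasal neurons, read 9.87 in the papain array against 9.94 in the PBS array. Of the formyl peptide receptor genes, Fpr-rs3 had a log2 ratio of 2.54 with a PBS signal under background level, and Fpr-rs4 and Fpr-rs6, both under background level in both arrays, had log2 ratios of 0.91 and 0.41. Most basal neuron markers and family 2 receptor genes were higher in the same array as the Vmn1r genes, and their part in the result was not tested.

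**Figure D5:**
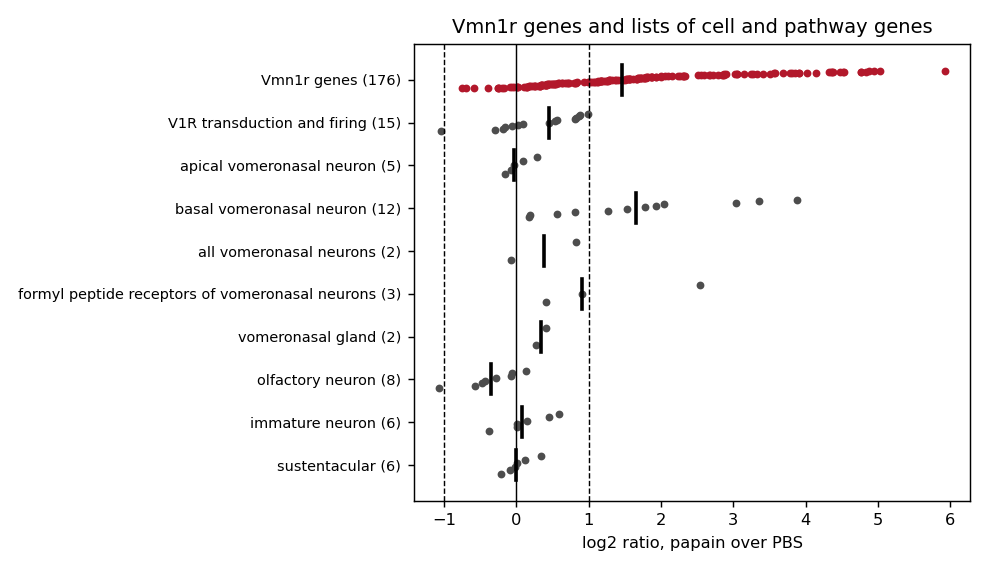
Log2 ratio of papain over PBS for the Vmn1r genes (red points) and for the measured genes of each list (grey points), with the number of genes in brackets and the median as a black bar. Dashed lines mark 2-fold. The Vmn1r and basal vomeronasal neuron rows reach far past the right dashed line, with medians of 1.46 and 1.65, and the apical neuron row stays between the dashed lines.

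The RefSeq table holds 231 genes of the Vmn1r symbol form. Beside the 176 members, 54 were named only in array rows that list several genes, and 1 was in no named row. Of the members, 27 were also named in such shared rows. Their median log2 ratio was 1.58 with 21 of 27 at least 2-fold higher. The 149 members outside shared rows had a median of 1.32 with 92 at least 2-fold higher. Under background level in both arrays were 12 of the 27 and 80 of the 149. This split was chosen after the data were seen. Members outside shared rows, such as Vmn1r36 and Vmn1r37, can still be close copies, so the split does not show how far copies share signal.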

How the data were processed

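Total RNA of 2 specimens of mouse nasal mucosa was hybridised to 1 array each. The values that the authors deposited are log2 signals per array row, a scale read from the values, with array medians of 5.70 for papain and 5.64 for PBS. Per the submitters' processing notes, Transcriptome Analysis Console 4.0 was used. How the background was corrected and the probes were summarised and normalized is not stated there, and equalised arrays cannot show a difference in total RNA.

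Of 41345 rows, 23521 carried 1 gene symbol in the platform annotation, 1814 several and 16010 none, and only the first were named. The row with the highest mean was kept for each of 22180 genes. The members and lists were chosen with earlier results of these data known. Named genes comprised the members with the 10 highest and 5 lowest ratios, the 5 highest signals in each array, the extremes of each V1r subfamily, V1rb2, V1rj2 and V1rj3, the members nearest 2-fold and all measured genes of the pathway and vomeronasal lists, while others were named after their values were seen. "At least" folds set a PBS signal under background level to that level. Alternatives were quantile normalization, centring, loess with a span of 0.3, other rows per gene, filters on dim genes, rows naming several genes and thresholds of 1.5-fold and 3-fold. Counting and loess were tested on simulated data. Names, gene order and sequences came from RefSeq tables of assembly GRCm38.p6. Python 3.11.15, numpy 2.4.6, pandas 2.3.3, statsmodels 0.14.6 and matplotlib 3.10.9 were used.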

Additional observations from a re-analysis of the deposited data

Results flagged for a closer look

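A signal was present in rows outside the 176 members, of which the rows naming Vmn1r genes alone entered 1 alternative setting. Array rows that list several genes, among them at least 1 Vmn1r gene, numbered 44, and rows that held the same pair of values were counted once, which left 30 distinct pairs. Each row listed between 2 and 20 genes. The median of the 30 was 6.98 in the papain array, above its value of 4.29 in the PBS array, and all 30 had a log2 ratio of at least 1, from 1.20 to 3.71 with a median of 2.76. The share at least 2-fold higher was 1.83% over all named genes, and it was not counted over the other rows that list several genes. In 28 of the 30 the papain signal exceeded background level, and in 2 the PBS signal did. Such a row cannot be assigned to any of the genes it lists. Only 28 of the 44 rows named Vmn1r genes alone. Different rows can list the same close copies, so the 30 pairs are not separate observations.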

How the results depend on the processing

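The count of members at least 2-fold higher, 113 of 176, became 111 after quantile normalization, 110 after loess, and 114 with the median of named genes set to 0, with averaged rows or with the dimmer row, and the median log2 ratio stayed between 1.42 and 1.49 in these settings. With members above the median signal of named genes, 6.29, only 44 members were left, of which 40 were at least 2-fold higher, where 1.59% of named genes above it were, with a median of 3.57. All of these but Vmn1r43, Vmn1r159 and Vmn1r233 pass only through the papain signal. With members above background level in the PBS array, for which no share of named genes was counted, 13 were left, and 7 of them were at least 2-fold higher. With rows naming several Vmn1r genes added, 133 of 196 were. A threshold of 1.5-fold gave 126 higher and 3 lower, where 5.38% and 4.34% of all named genes were, and 3-fold gave 79 higher. In 2 settings chosen after seeing the data, 92 of 149 were at least 2-fold higher without members of shared rows and 113 of 173 without members that had repeated rows. No member was at least 2-fold lower in any setting run at 2-fold or 3-fold. The choice of row can alter only members with repeated rows: with the dimmer row the log2 ratio was 0.82 for Vmn1r208 and 3.28 for Vmn1r233, and with averaged rows 0.12 and 1.73. No paired analysis was possible because each group was 1 array. Dim PBS signals limit the size of most folds.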
